A study of Mus musculus with 11 samples.

Results

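The MHC class II genes followed here are 7 genes chosen by symbol: the class II chains H2-Aa, H2-Ab1 and H2-Eb1, the invariant chain Cd74, the peptide loading factors H2-DMa and H2-DMb1, and the transactivator Ciita. Their Ensembl identifiers were matched to GENCODE M21, and all 7 were found among the 52636 genes listed for each of 11 fetal livers. All 7 also passed the filter on low counts that left 17243 genes for testing. The livers were taken at E15.5 from untreated embryos of 4 genotypes on a C57BL/6N background. They were 3 WT livers, 2 livers labelled Tnfr1-/-, 3 labelled Casp8-/- Mlkl-/- and 3 labelled Casp8-/- Tnfr1-/-. The alleles are constitutive, so every cell of the liver and of the rest of the embryo carried them. TNFR1 is a receptor for TNF, caspase-8 restrains necroptosis, and MLKL carries out that form of cell death. The comparisons asked whether class II genes were induced, as they are by IFN-gamma, or were raised with antigen-presenting cells in Casp8-/- Tnfr1-/- livers.

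MHC class II molecules are pairs of an alpha and a beta chain that display peptides on the cell surface to CD4+ T cells. In the endoplasmic reticulum each pair is held by the invariant chain, which Cd74 encodes and which guides it to endosomes. There the H2-DM pair exchanges the last fragment of the invariant chain for a peptide. Constitutive class II expression is a property of dendritic cells, B cells and some macrophages, whereas IFN-gamma can start it in many other cells through factors such as IRF1 and CIITA. CIITA binds no DNA itself and is drawn to class II promoters by RFX, CREB and NF-Y proteins that sit on their X and Y boxes. Its relative NLRC5 does the same for MHC class I genes. In mice of the H2b haplotype, such as C57BL/6, the alpha chain gene H2-Ea is not transcribed, so H2-Eb1 makes a beta chain without its usual partner.

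The promoters of 3 members are printed here, chosen because they hold the letters of both boxes. They were read from RefSeq promoter windows on GRCm38.p6, from 250 bases before to 50 bases after the start site, and are written 5′ to 3′ on the strand of the gene. Capitals mark the letters GNAACT of the X box and TGATTGG of the Y box. The windows are chr17:34287774-34288073 on the minus strand for H2-Aa, and chr17:34305617-34305916 for H2-Eb1 and chr17:34152941-34153240 for H2-DMb1, both on the plus strand.
H2-Aa promoter: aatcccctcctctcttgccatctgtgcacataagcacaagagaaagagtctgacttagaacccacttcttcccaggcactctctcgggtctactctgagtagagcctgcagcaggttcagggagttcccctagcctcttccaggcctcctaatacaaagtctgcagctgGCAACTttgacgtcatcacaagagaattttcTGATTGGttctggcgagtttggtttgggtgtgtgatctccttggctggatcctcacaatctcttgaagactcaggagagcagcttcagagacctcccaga
H2-Eb1 promoter: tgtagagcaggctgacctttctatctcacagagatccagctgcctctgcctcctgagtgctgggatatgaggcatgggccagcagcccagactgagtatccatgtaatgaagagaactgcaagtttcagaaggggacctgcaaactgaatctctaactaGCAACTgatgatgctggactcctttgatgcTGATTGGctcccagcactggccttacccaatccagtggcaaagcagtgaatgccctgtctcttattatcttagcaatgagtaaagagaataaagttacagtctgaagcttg
H2-DMb1 promoter: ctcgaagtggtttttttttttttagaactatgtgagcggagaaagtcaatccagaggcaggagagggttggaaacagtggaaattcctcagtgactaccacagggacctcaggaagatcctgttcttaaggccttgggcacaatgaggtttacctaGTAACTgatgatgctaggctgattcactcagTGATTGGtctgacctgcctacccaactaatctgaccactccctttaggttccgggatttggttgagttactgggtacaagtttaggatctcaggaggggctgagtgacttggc
GNAACT and TGATTGG were 25 bases apart in H2-Aa and H2-DMb1 and 24 in H2-Eb1, without overlap, and TGATTGG ended 43 to 56 bases before the start site. Among 32851 promoter windows searched on both strands, 42.8% held GNAACT and 7.82% held TGATTGG. The letters in this order at a distance of 20 to 30 bases were in 41 windows, or 0.125%. The letters were taken from these promoters, so their presence here is a description. The 2 windows of H2-DMa held no such pair. H2-Ab1, Cd74 and Ciita had no window in the table. Among related genes, H2-Eb2 held the pair, while H2-DMb2, H2-Oa and H2-Ob held TGATTGG alone. None of the 9 MHC class I genes with a window held the pair in this spacing, although H2-K1, H2-D1, Tap1 and Psmb9 held both sets of letters.

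H2-Aa (17:34282744-34287823), H2-Ab1 (17:34257689-34269419), H2-Eb1 (17:34305867-34316674), H2-DMa (17:34119541-34139101) and H2-DMb1 (17:34153072-34160230) lie in the MHC on chromosome 17 of GRCm38. Cd74 is on chromosome 18 (60803848 to 60812652) and Ciita on chromosome 16 (10480059 to 10528418). Reads were counted on exons, and use of strand in counting was not given in the sources used here. For H2-DMa, 10.4% of annotated exon bases also belong to exons of Brd2 on the opposite strand, and for Ciita 3.45% belong to Dexi, so reads of these pairs may not be told apart. These shares are over all GENCODE M21 exons, 3448 bases for H2-DMa and 9535 for Ciita. The exon lengths given with the counts are 1555 and 5254 bases, so the shares of the counted bases may differ. H2-DMb1 shares 22.7% of its 50-base stretches with H2-DMb2, its near copy, and its count is uncertain to that extent.

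Libraries held 23129212 to 35819339 counted reads. Levels are given as CPM, read counts scaled to library size with TMM factors. Casp8-/- Tnfr1-/- replicate 3 stood apart: Pearson's r of log2 CPM across genes, which are not independent replicates, was 0.840 to 0.891 with the other livers and at least 0.949 among those. Its 10 striated muscle markers summed to 1654 CPM, against 15.0 to 36.8 CPM in the other 10 livers. Casp8 measured 7.82 to 21.9 CPM in the 6 livers labelled Casp8-/- and 27.7 to 33.8 CPM in the other 5, and Mlkl measured 0.729 to 1.22 CPM in the livers labelled Casp8-/- Mlkl-/- and at least 3.68 CPM elsewhere. Tnfrsf1a, which encodes TNFR1, was not lower in livers labelled Tnfr1-/- (49.8 and 50.5 CPM) than in WT livers (47.1 to 53.4 CPM), so its count over the whole gene did not check that label. The 8 hepatocyte markers summed to at least 51593 CPM in every library, as the label fetal liver requires, and were highest for 7 of 8 in Casp8-/- Mlkl-/- replicate 1. That liver stood apart in its makeup, although its r was at least 0.949 with all livers but Casp8-/- Tnfr1-/- replicate 3. Its hepatocyte sum was 208947 CPM against at most 101176 CPM elsewhere, and limma's quality weight was 0.114 for it and 0.0383 for Casp8-/- Tnfr1-/- replicate 3, against at least 1.15 for the others. The study counts the libraries as separate fetal livers, and p-values measure the spread between these livers.

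Class II genes were weakly expressed in fetal liver of every genotype. The 7 genes together made 17.5 to 24.3 CPM in WT livers, 21.7 and 29.2 CPM in Tnfr1-/- livers, 12.4 to 45.8 CPM in Casp8-/- Mlkl-/- livers and 25.9 to 41.9 CPM in Casp8-/- Tnfr1-/- livers. For comparison, 11 MHC class I genes made 565 to 594 CPM in WT livers. Per kilobase of exon, the order of the levels in WT livers was Cd74 with 4.45 to 6.39 CPM per kb, then H2-Aa with 2.72 to 2.95, H2-Ab1 with 2.25 to 3.30 and H2-DMa with 2.05 to 3.70, then H2-Eb1 with 0.832 to 1.26, H2-DMb1 with 0.562 to 1.04 and Ciita with 0.0584 to 0.0975. The ranges of H2-Aa, H2-Ab1 and H2-DMa overlapped, as did those of H2-Eb1 and H2-DMb1, while Cd74 lay above and Ciita below all others. In bulk RNA, fewer class II positive cells and less class II RNA per cell cannot be told apart.

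H2-Aa encodes the alpha chain of the I-A molecule. It measured 3.34, 3.31 and 3.07 CPM in WT livers, 3.33 and 5.5 CPM in Tnfr1-/- livers, 6.64, 2.0 and 1.18 CPM in Casp8-/- Mlkl-/- livers, and 1.92, 1.48 and 1.31 CPM in Casp8-/- Tnfr1-/- livers. All 3 Casp8-/- Tnfr1-/- livers thus lay below all WT and Tnfr1-/- livers but overlapped Casp8-/- Mlkl-/- livers, whose replicate 3 was the lowest of all 11. The share of all genes that lay below WT and Tnfr1-/- livers in this way was not counted. The log2 fold change was -1.04 against WT (SE 0.55, 0.487-fold with a 95% interval of 0.209 to 1.14), -1.48 against Tnfr1-/- (SE 0.59, 0.358-fold, 0.143 to 0.897) and -1.05 against Casp8-/- Mlkl-/- (SE 0.55, 0.484-fold, 0.208 to 1.13). None passed at an edgeR quasi-likelihood p adjusted by Benjamini-Hochberg over all genes (0.265, 0.255 and 0.396).

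H2-Ab1 encodes the beta chain that pairs with the product of H2-Aa. It measured 3.99, 3.64 and 2.72 CPM in WT livers, 3.55 and 4.33 CPM in Tnfr1-/- livers and 9.60, 2.38 and 2.10 CPM in Casp8-/- Mlkl-/- livers. In Casp8-/- Tnfr1-/- livers it measured 2.90, 2.37 and 31.4 CPM. The last value is that of replicate 3, with 551 counts, against 95 and 69 counts in replicates 1 and 2, which lay among the other genotypes. The log2 fold change against WT was 1.81 (SE 0.95, edgeR adjusted p = 0.263) and turned to -0.38 without replicate 3 (SE 0.59, adjusted p = 0.760). Its partner chain gene H2-Aa had 23 counts in that same liver and H2-Eb1 had 1 count. H2-Ab1 was therefore called in no comparison, which does not exclude a rise, and 1 liver decided the sign of its fold change.

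H2-Eb1 encodes the beta chain of the I-E molecule. Its level was 1.5, 1.42 and 0.986 CPM in WT livers, 1.64 and 3.15 CPM in Tnfr1-/- livers, 4.78, 0.987 and 1.11 CPM in Casp8-/- Mlkl-/- livers, and 1.77, 1.69 and 0.0569 CPM in Casp8-/- Tnfr1-/- livers. Replicates 1 and 2 of Casp8-/- Tnfr1-/- lay above all WT livers, and replicate 3 lay below every other liver. The log2 fold change was -0.12 against WT (SE 0.87, 0.923-fold, 0.242 to 3.52), -0.99 against Tnfr1-/- (SE 0.94) and -0.92 against Casp8-/- Mlkl-/- (SE 0.86), with edgeR adjusted p of 0.941, 0.610 and 0.617. Without replicate 3 the value against WT was 0.41 (SE 0.65, adjusted p = 0.763).

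Cd74 was the most abundant of the 7 genes per length in WT livers, and besides its chaperone role its product serves as a receptor for the cytokine MIF. It measured 7.95, 9.01 and 6.27 CPM in WT livers, 7.95 and 9.03 CPM in Tnfr1-/- livers and 18.6, 5.98 and 4.55 CPM in Casp8-/- Mlkl-/- livers. The Casp8-/- Tnfr1-/- livers measured 14.2, 14.8 and 8.14 CPM. Replicates 1 and 2 exceeded all other livers apart from Casp8-/- Mlkl-/- replicate 1, which held the highest level, and replicate 3 lay within the WT range. The log2 fold change was 0.68 against WT (SE 0.47, 1.61-fold, 0.772 to 3.34), 0.55 against Tnfr1-/- (SE 0.53) and 0.36 against Casp8-/- Mlkl-/- (SE 0.47), with edgeR adjusted p of 0.383, 0.617 and 0.714.

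H2-DMa and H2-DMb1 encode the H2-DM heterodimer that edits peptides. H2-DMa measured 5.76, 3.85 and 3.19 CPM in WT livers, 3.80 and 4.78 CPM in Tnfr1-/- livers, 4.13, 2.50 and 2.56 CPM in Casp8-/- Mlkl-/- livers, and 3.93, 4.20 and 0.456 CPM in Casp8-/- Tnfr1-/- livers. H2-DMb1 measured 1.46, 0.964 and 0.788 CPM in WT livers, 0.957 and 1.75 CPM in Tnfr1-/- livers, 1.38, 0.871 and 0.573 CPM in Casp8-/- Mlkl-/- livers, and 1.04, 1.07 and 0.569 CPM in Casp8-/- Tnfr1-/- livers. For both genes the genotypes overlapped, and Casp8-/- Tnfr1-/- replicate 3 held the lowest level of all livers. Against WT the log2 fold change was -0.56 for H2-DMa (SE 0.60, 0.680-fold, 0.269 to 1.72) and -0.25 for H2-DMb1 (SE 0.45, 0.842-fold, 0.423 to 1.68), with edgeR adjusted p of 0.566 and 0.734. Against Casp8-/- Mlkl-/- both values were close to 0 (-0.08, SE 0.60, for H2-DMa and -0.06, SE 0.45, for H2-DMb1, edgeR adjusted p = 0.954 for each).

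Ciita, the transactivator on which the class II genes depend, was counted at 0 to 18 reads per liver. It measured 0.307, 0.335 and 0.512 CPM in WT livers, 0.437 and 0.645 CPM in Tnfr1-/- livers, 0.729, 0.465 and 0.306 CPM in Casp8-/- Mlkl-/- livers, and 0.305 and 0.310 CPM in replicates 1 and 2 of Casp8-/- Tnfr1-/-. In replicate 3 of that genotype 0 of 23194155 reads were found, which allows a level of up to 0.171 CPM, counting error only. No Casp8-/- Tnfr1-/- liver exceeded the WT mean of 0.385 ± 0.111 CPM (SD, n = 3). Against WT the log2 fold change was -0.79 (SE 0.72, 0.578-fold, 0.189 to 1.77, edgeR adjusted p = 0.502), against Tnfr1-/- -1.27 (SE 0.77) and against Casp8-/- Mlkl-/- -1.16 (SE 0.71).

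**Figure D1:**
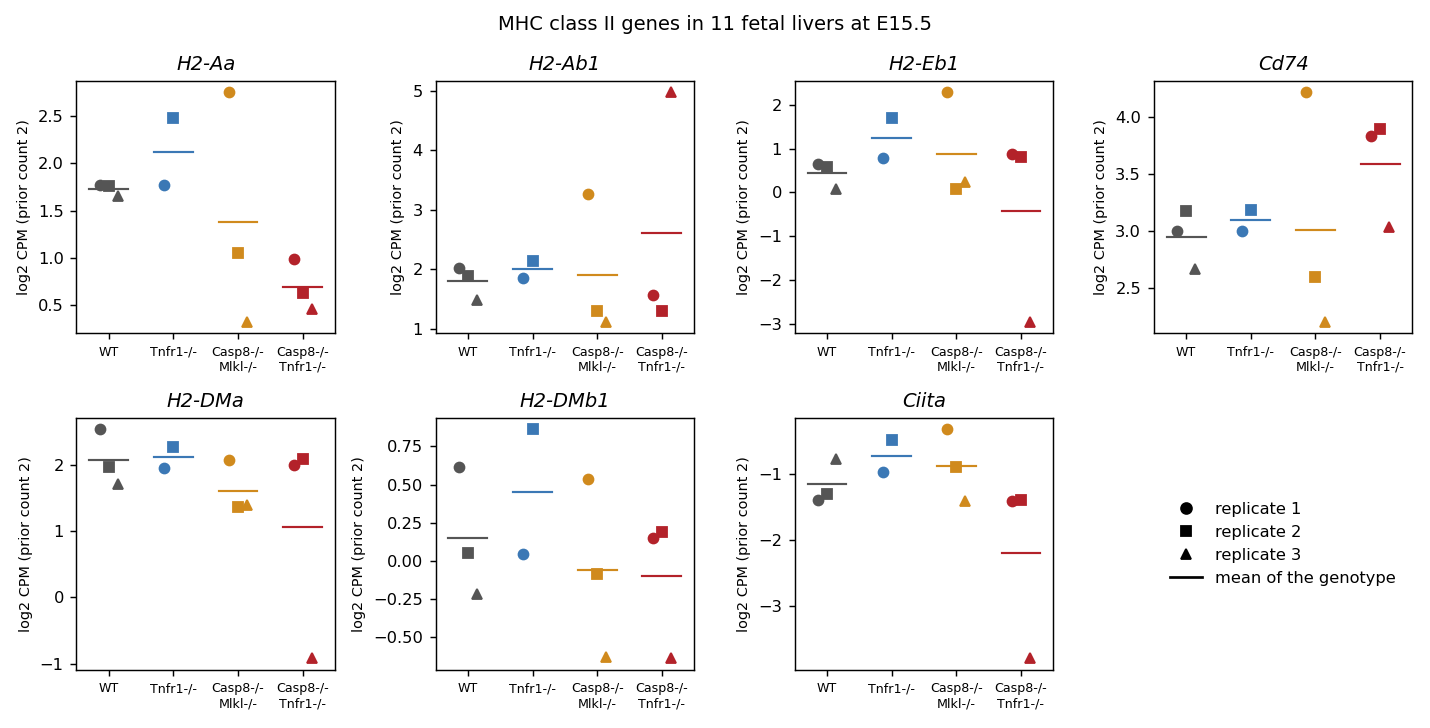
Log2 CPM with a prior count of 2 (y axis) of the 7 MHC class II genes in 11 livers grouped by genotype (x axis), with a symbol for each replicate and a line at the mean of the genotype. Casp8-/- Tnfr1-/- replicate 3 is the highest liver for H2-Ab1 and the lowest for H2-Eb1, H2-DMa, H2-DMb1 and Ciita, and Casp8-/- Mlkl-/- replicate 1 is the highest for H2-Aa, H2-Eb1, Cd74 and Ciita.

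Over the 7 genes, edgeR called 0 in each of the 5 comparisons. In Casp8-/- Tnfr1-/- against WT, 5.8% of all genes tested were called (5.1% higher and 0.702% lower), 0 of the 7 had an unadjusted p under 0.05, and their median log2 fold change was -0.25 beside -0.00 for all genes. Against Tnfr1-/-, 2.17% of all genes were called (2.05% higher and 0.122% lower), H2-Aa alone had an unadjusted p under 0.05 (0.0319), and the median was -0.58 beside -0.01. Against Casp8-/- Mlkl-/-, 1.65% of genes were called (1.54% higher and 0.116% lower), 0 of the 7 had such a p, and the median was -0.08 beside -0.03. Among the 17243 genes tested, 4238, 2819 and 2644 had an unadjusted p under 0.05 against WT, Tnfr1-/- and Casp8-/- Mlkl-/-. The same totals apply to the gene lists below. These 3 comparisons share the same Casp8-/- Tnfr1-/- livers. Between control genotypes 0 of the 7 had an unadjusted p under 0.05. Such a p was held by 971 genes in Casp8-/- Mlkl-/- against WT and by 186 in Tnfr1-/- against WT. There the median was 0.32 in Casp8-/- Mlkl-/- against WT, where 0.0058% of all genes were called, and 0.33 in Tnfr1-/- against WT, where 0% were called. Casp8-/- Mlkl-/- replicate 1 decided the sign of 2 medians: without it, that of Casp8-/- Mlkl-/- against WT was -0.56 and that of Casp8-/- Tnfr1-/- against Casp8-/- Mlkl-/- was 0.21. The median of Casp8-/- Tnfr1-/- against WT also turned, from -0.25 to 0.0062, without WT replicate 1. DESeq2's Wald test, which gave no p for H2-Ab1, and limma-voom also called 0 members in all 5 comparisons. Against WT, Tnfr1-/- and Casp8-/- Mlkl-/- DESeq2 called 14%, 7.5% and 5.56% of all genes and limma-voom 4.68%, 2.27% and 1.78%. For 0 of the 7 genes did all Casp8-/- Tnfr1-/- livers lie above, or all below, the 8 livers of the other genotypes, whereas 7.43% of all genes lay above and 3.32% below.

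With the livers that stood apart left out or given less weight, many more genes were called, and the count of 2 of 7 members was near the share of all genes. Without Casp8-/- Tnfr1-/- replicate 3 and Casp8-/- Mlkl-/- replicate 1, Cd74 was higher in Casp8-/- Tnfr1-/- livers by a log2 fold change of 0.93 against WT, 0.79 against Tnfr1-/- and 1.47 against Casp8-/- Mlkl-/- (edgeR adjusted p = 0.000426, 0.00366 and 4.27e-05). H2-Aa was lower in the same fit, by -0.91 against WT and -1.34 against Tnfr1-/- (edgeR adjusted p = 0.0234 and 0.00390), but measured 0.09 against Casp8-/- Mlkl-/- (adjusted p = 0.894). Members called were 2, 2 and 1 of 7 in these comparisons, where this fit called 31.3%, 23.2% and 18.1% of all genes, and it left 2 livers in each double knockout. limma-voom with quality weights made the same calls for Cd74 and H2-Aa, where it called 30.6%, 25.1% and 15.7% of all genes. Leaving out Casp8-/- Tnfr1-/- replicate 3 alone gave Cd74 0.92 against WT with an adjusted p of 0.299, and leaving out Casp8-/- Mlkl-/- replicate 1 alone called only H2-Aa against Tnfr1-/- (-1.48, edgeR adjusted p = 0.0394, with 4.38% of all genes called).

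Cd74 was higher relative to H2-Aa in each Casp8-/- Tnfr1-/- liver than in any other liver, a comparison chosen after the values were seen and given without a test. The ratio of Cd74 to H2-Aa, each per kilobase, was 1.91, 2.18 and 1.64 in WT livers, 1.92 and 1.32 in Tnfr1-/- livers, and 2.24, 2.40 and 3.08 in Casp8-/- Mlkl-/- livers. It was 5.95, 8.05 and 4.99 in Casp8-/- Tnfr1-/- livers, all above the 8 others, replicate 3 included. The ratio of H2-Ab1 to H2-Aa was 0.735 to 1.66 in the 8 other livers and 1.41, 1.5 and 22.4 in Casp8-/- Tnfr1-/- livers. Only replicate 3 was outside the range for this ratio.

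**Figure D2:**
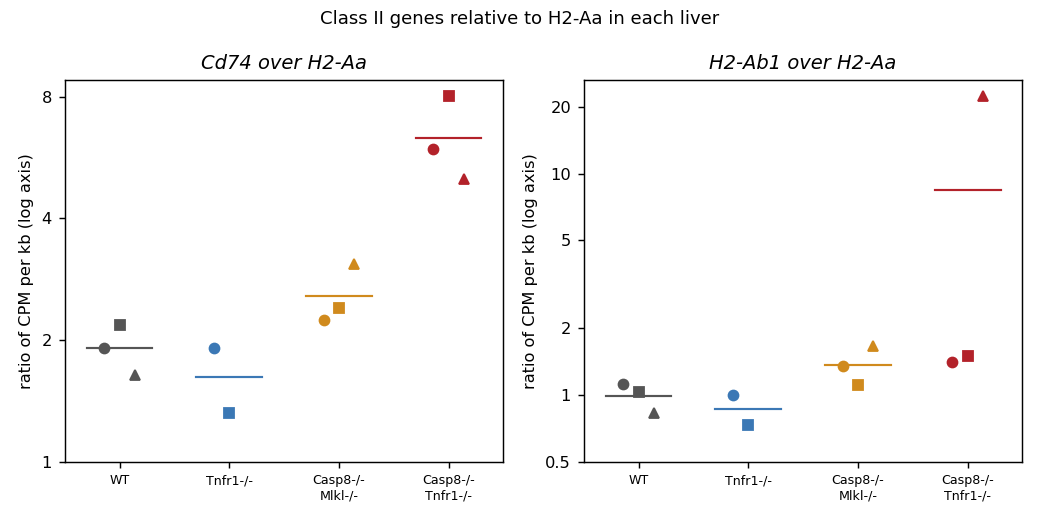
Ratio of Cd74 (left) and of H2-Ab1 (right) to H2-Aa, as CPM per kilobase on a log axis, in each of 11 livers by genotype, with a symbol for each replicate as in the plot of log2 CPM and a line at the mean. The Cd74 ratio lies at 4.99 to 8.05 in Casp8-/- Tnfr1-/- livers and at 1.32 to 3.08 in the others, while the H2-Ab1 ratio stands out at 22.4 in Casp8-/- Tnfr1-/- replicate 3.

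MHC class I genes differed from class II genes in the same livers. Of 11 class I genes, edgeR called 9 higher in Casp8-/- Tnfr1-/- livers against WT, 8 against Tnfr1-/- and 5 against Casp8-/- Mlkl-/-, and 0 lower, with median log2 fold changes of 1.55, 1.68 and 1.10. The shares of all genes called higher were 5.1%, 2.05% and 1.54%. All Casp8-/- Tnfr1-/- livers exceeded the 8 others for 9 of the 11, and for 7.43% of all genes. Nlrc5, the class I transactivator, measured 0.691 to 1.76 CPM in WT livers, 0.875 and 1.18 CPM in Tnfr1-/- livers, 4.78, 3.02 and 2.06 CPM in Casp8-/- Mlkl-/- livers, and 30.6, 21.9 and 14.5 CPM in Casp8-/- Tnfr1-/- livers. It rose by a log2 fold change of 4.39 against WT (SE 0.49, 21-fold, 9.86 to 44.6, edgeR adjusted p = 0.000981), 4.45 against Tnfr1-/- (adjusted p = 0.00419) and 2.77 against Casp8-/- Mlkl-/- (adjusted p = 0.0160), while its relative Ciita did not pass in any of these. Tap1, the peptide transporter, rose 6.64-fold against WT (4.19 to 10.5, edgeR adjusted p = 0.000876), and Tapbp, which links it to class I, rose by a log2 fold change of 1.45 (edgeR adjusted p = 0.00110). H2-D1, a class I heavy chain, rose 4.36-fold (2.51 to 7.58, edgeR adjusted p = 0.00881). Against WT, the intervals of Nlrc5 and Tap1 lay wholly above those of 6 of the 7 class II genes and overlapped that of H2-Ab1. The interval of H2-D1 also overlapped those of Cd74 and H2-Eb1. The smallest class I log2 fold change against WT was 0.74, beside 0.68 for Cd74, so the 2 sets of genes were not wholly apart. Without Casp8-/- Tnfr1-/- replicate 3 and Casp8-/- Mlkl-/- replicate 1, all 11 class I genes were called higher against each genotype. That fit called 3017, 2354 and 2032 of 16958 genes higher against WT, Tnfr1-/- and Casp8-/- Mlkl-/-.

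**Figure D3:**
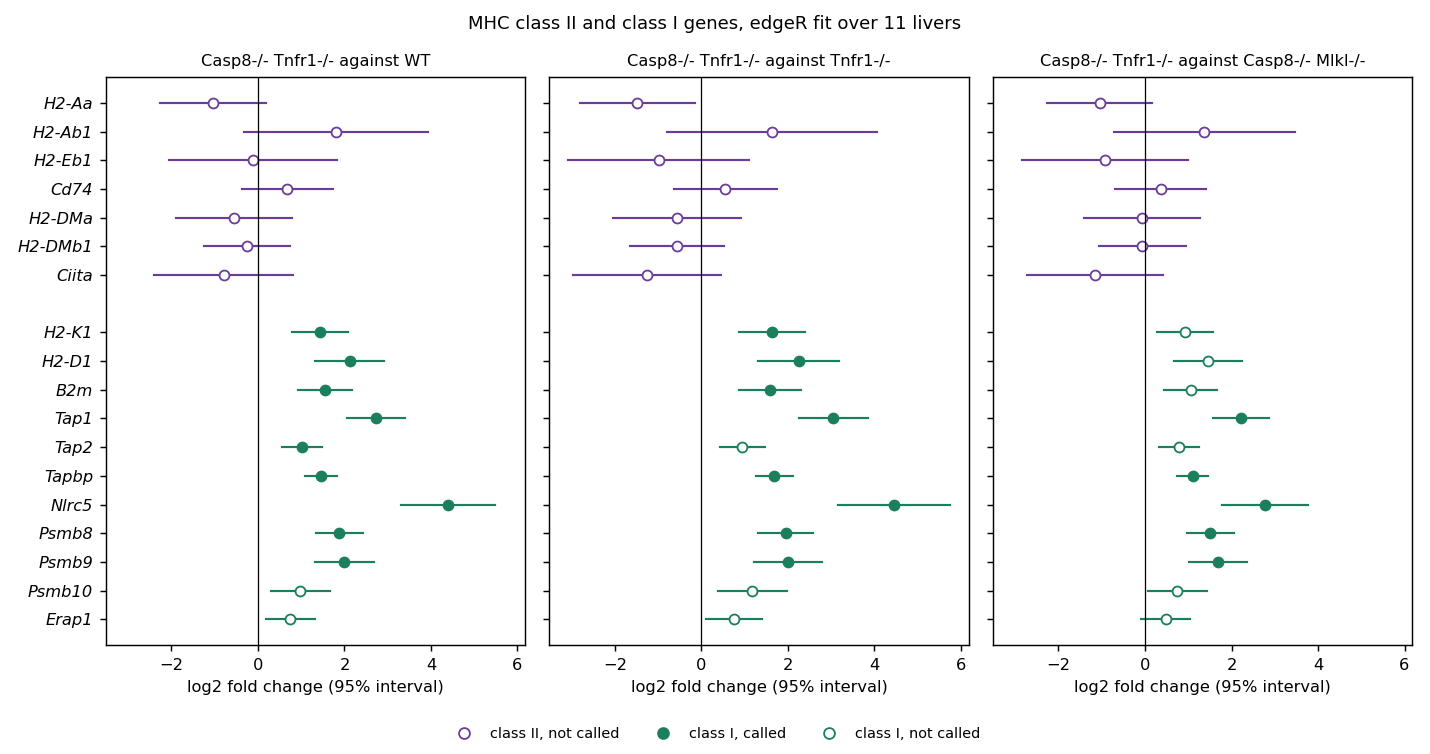
Log2 fold change (x axis, shared by the panels) with its 95% interval for 7 MHC class II genes (purple) and 11 MHC class I genes (green) in Casp8-/- Tnfr1-/- livers against each of 3 genotypes; filled points passed at an edgeR adjusted p under 0.05. All class II points are open, and 9, 8 and 5 class I points are filled.

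Genes of the IFN-gamma response rose with class I. Of 12 IFN-gamma induced genes, 11 were tested, and edgeR called all 11 of these higher in Casp8-/- Tnfr1-/- livers against WT, 8 against Tnfr1-/- and 6 against Casp8-/- Mlkl-/-, with medians of 3.38, 3.5 and 1.92. In these comparisons 5.1%, 2.05% and 1.54% of all genes were called higher. Cxcl10, a chemokine, rose by a log2 fold change of 4.38 against WT (SE 0.19, edgeR adjusted p = 5.86e-06), Irgm1, a GTPase, by 2.68 (adjusted p = 5.36e-05) and Gbp3, a guanylate-binding protein, by 3.37 (adjusted p = 0.000200). Many of these genes also respond to type I interferon. In the IFN-gamma pathway, 3 of 7 tested genes were called higher against WT, among them Irf1 (1.89, edgeR adjusted p = 0.00966) and Ifngr2 (0.85, edgeR adjusted p = 0.0262). Irf1 encodes a transcription factor that acts on Ciita in the IFN-gamma response, and Ifngr2 a chain of the IFN-gamma receptor. Against Tnfr1-/- 2 of the 7 passed and against Casp8-/- Mlkl-/- 1, and 0 fell in any. Ifng itself had 0 to 3 counts per liver in all genotypes, with 3 counts in Casp8-/- Tnfr1-/- replicate 1 and 0 in replicates 2 and 3, and was not tested. These counts are at or under the floor of 3 counts, which stood for 0.0820 to 0.171 CPM, so no difference in Ifng was detectable at this depth.

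The T, NK and ILC markers, from cells that make IFN-gamma, were low. Of 13 genes 7 were tested and edgeR called 0 in any comparison (unadjusted p under 0.05 for 1, 0 and 0 against WT, Tnfr1-/- and Casp8-/- Mlkl-/-), and they summed to 11.1 to 17.7 CPM in WT livers and 13.4 to 21.6 CPM in Casp8-/- Tnfr1-/- livers. Such a p was held by 4238, 2819 and 2644 of 17243 genes in these comparisons. The T cell receptor subunit gene Cd3e had 0 to 2 counts in every liver. In Casp8-/- Mlkl-/- replicate 1 the sum reached 52.2 CPM, and 9 of the 13 genes were highest there.

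Markers of antigen-presenting cells were described beside the class II genes. Of 12 dendritic cell markers 9 were tested, and edgeR called 0 in Casp8-/- Tnfr1-/- livers against WT, Tnfr1-/- or Casp8-/- Mlkl-/- (unadjusted p under 0.05 for 3, 3 and 1). Such a p was held by 4238, 2819 and 2644 of 17243 genes in these comparisons. Itgax, the CD11c integrin, measured 2.35, 3.41 and 3.53 CPM in Casp8-/- Tnfr1-/- livers and 0.610 to 2.23 CPM in the 8 others (log2 fold change 1.21 against WT, SE 0.44, edgeR adjusted p = 0.131). Flt3, a growth factor receptor of progenitors and dendritic cells, measured 4.15, 3.65 and 1.2 CPM against 4.57 to 7.14 CPM in the others (-0.91, SE 0.38, adjusted p = 0.179). Siglech, a marker of plasmacytoid dendritic cells, measured 0 to 0.413 CPM against 0.545 to 1.05 CPM (-1.18, SE 0.69, adjusted p = 0.305). Thus 1 marker lay above and 2 below all other livers, where 7.43% and 3.32% of all genes did. Zbtb46, which marks classical dendritic cells but also erythroid and endothelial cells, measured 24.2 to 47.2 CPM in the 8 others and 21.7 to 34.5 CPM in Casp8-/- Tnfr1-/- livers, whereas Xcr1 had 0 to 3 counts and Cd209a 0 to 6 counts in all livers. The list summed to 1519 to 3359 CPM in Casp8-/- Tnfr1-/- and 1882 to 2718 CPM in the other livers, nearly all of it from Cd24a, which red cell precursors share. Without both livers that stood apart, 1 of 8 tested dendritic cell markers was higher and 3 lower against WT. That fit called 3017 of 16958 genes higher and 2297 lower.

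B lineage markers and 4 of the 7 class II genes were highest in the same liver. Casp8-/- Mlkl-/- replicate 1 was the highest liver for 12 of 12 B lineage markers, which summed to 213 CPM there, to 39.4 and 37.5 CPM in the other livers of its genotype, to 40.3 to 73.9 CPM in WT, to 73.3 and 79.4 CPM in Tnfr1-/- and to 30.8 to 34.4 CPM in Casp8-/- Tnfr1-/- livers. Cd79a, a subunit of the B cell receptor, measured 10.5 CPM in that liver and 1.10 to 3.72 CPM in the others. H2-Aa, H2-Eb1, Cd74 and Ciita were likewise highest in that liver. This was not particular to the B lineage: 7 of 8 hepatocyte, 10 of 13 macrophage and 9 of 13 T, NK and ILC markers were also highest there. For neutrophil and erythroid markers it was 0 of 8 each. The mature B cell marker Ms4a1 had 0 to 13 counts, so the lineage was seen mostly through early genes such as Rag1 (33.3 CPM in that liver). Of 11 B lineage markers tested, edgeR called 0 in any comparison (unadjusted p under 0.05 for 0, 1 and 8 against WT, Tnfr1-/- and Casp8-/- Mlkl-/-), with medians of -0.71, -1.42 and -1.67 in Casp8-/- Tnfr1-/- livers. Such a p was held by 4238, 2819 and 2644 of 17243 genes in these comparisons. Without both livers that stood apart, 5 of 11 were lower against WT, 9 against Tnfr1-/- and 1 against Casp8-/- Mlkl-/-. That fit called 2297, 1577 and 1035 of 16958 genes lower in these comparisons. H2-Aa was lower in it against the same first 2 genotypes. The part of B lineage cells in the class II levels was not tested.

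Macrophage markers were called in both directions. Of 13 tested, edgeR called 2 lower and 1 higher in Casp8-/- Tnfr1-/- livers against WT, 0 against Tnfr1-/- (6 with an unadjusted p under 0.05), and 3 lower against Casp8-/- Mlkl-/-. This fit called 0.702% of all genes lower and 5.1% higher against WT, and 0.116% lower against Casp8-/- Mlkl-/-. Against Tnfr1-/-, 2819 of 17243 genes had an unadjusted p under 0.05. Cd68, a lysosomal protein of phagocytes, was higher against WT (log2 fold change 0.90, edgeR adjusted p = 0.0293), while the Kupffer cell lectin Clec4f (-4.23, 0.0436) and the scavenger receptor Marco (-1.51, 0.0495) were lower. Adgre1, which encodes F4/80, measured 40.2, 38.5 and 13.1 CPM in Casp8-/- Tnfr1-/- livers and 46.2 to 170 CPM in the others. It was lower against Casp8-/- Mlkl-/- (-2.03, SE 0.38, edgeR adjusted p = 0.0309) but not called against WT (-0.78, adjusted p = 0.221). C1qa, a complement gene of tissue macrophages, measured 22.9 to 39.4 CPM against 33.4 to 142 CPM. The list was highest in Casp8-/- Mlkl-/- replicate 1 for 10 of 13 genes, with a sum of 1676 CPM there, and summed to 313 to 523 CPM in Casp8-/- Tnfr1-/- livers, all below the 532 to 758 CPM of the other 7. Without both livers that stood apart, 2 macrophage markers were higher and 6 lower against WT, where 3017 of 16958 genes were called higher and 2297 lower. The part of macrophages in the Cd74 level was not tested.

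**Figure D4:**
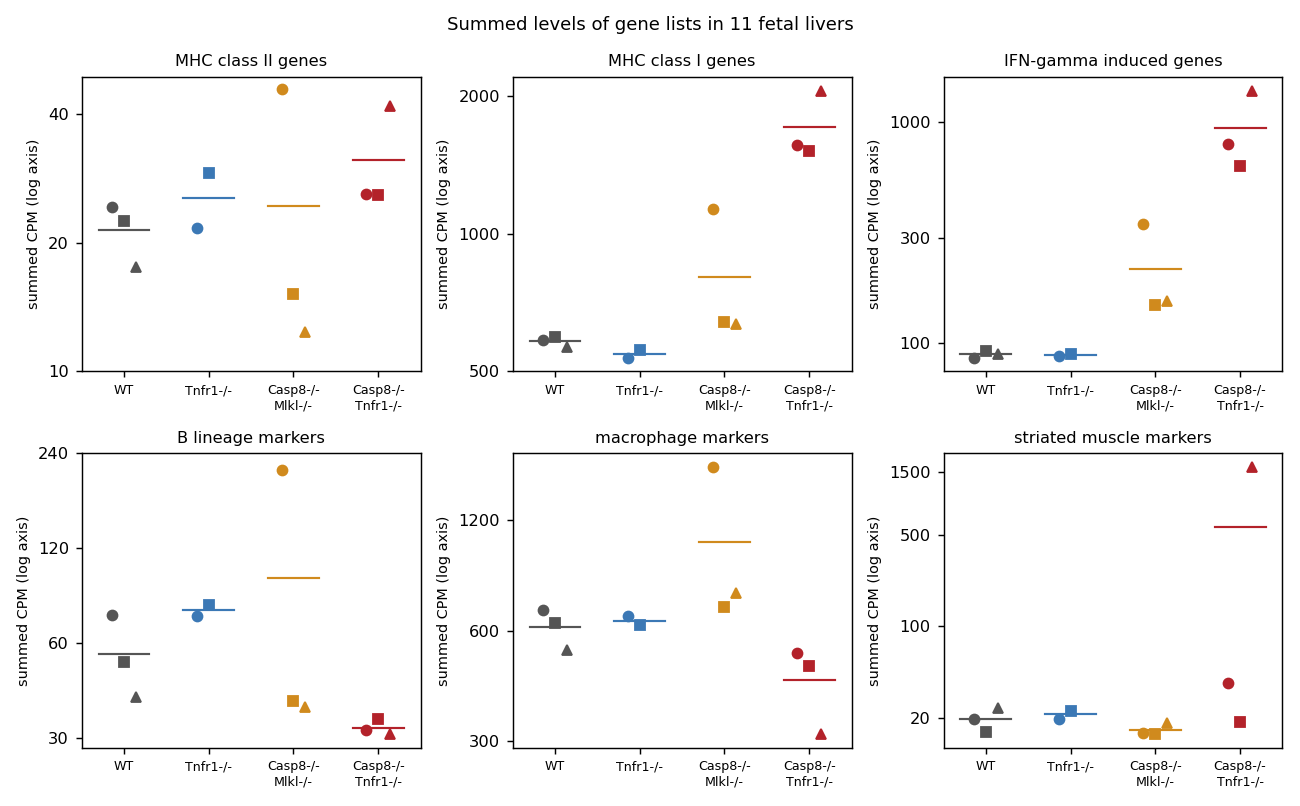
Summed CPM on log axes of 7 MHC class II genes, 11 MHC class I genes, 12 IFN-gamma induced genes, 12 B lineage, 13 macrophage and 10 striated muscle markers in each of 11 livers by genotype, with a symbol for each replicate as in the plot of log2 CPM and a line at the mean. Class I and IFN-gamma induced genes are highest in the 3 Casp8-/- Tnfr1-/- livers, class II and B lineage sums are highest in Casp8-/- Mlkl-/- replicate 1, and muscle markers stand out in Casp8-/- Tnfr1-/- replicate 3.

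The other 5 class II genes together made 0.513 to 4.66 CPM, less than the 7 members in every liver. H2-Ea-ps, the H2-Ea locus, had 0 counts in all 11 livers, and H2-Eb2 had 0 to 4 counts. H2-Oa and H2-Ob encode H2-O, an inhibitor of H2-DM that is typical of B cells. H2-Ob measured 3.0 CPM in Casp8-/- Mlkl-/- replicate 1 and 0.203 to 0.729 CPM in the other 10 livers, and H2-Oa 1.05 CPM in that liver and 0 to 0.726 CPM in the others. H2-DMb2 measured 0.228 to 1.19 CPM. edgeR called 0 of these 3 tested genes in the 5 comparisons. Against Casp8-/- Mlkl-/-, H2-Oa (-1.62, adjusted p = 0.314) and H2-Ob (-2.01, adjusted p = 0.308) had an unadjusted p under 0.05. Such a p was held by 2644 of 17243 genes in that comparison.

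Genes of class II loading and turnover and of class II transcription were tested as 2 further lists. Such unadjusted p under 0.05 as are given here stand beside 4238, 2819 and 2644 of 17243 genes against WT, Tnfr1-/- and Casp8-/- Mlkl-/-. Of 10 genes of loading and turnover edgeR called 0 in any comparison, with 5 at an unadjusted p under 0.05 against WT. Among them Ctss, the protease that trims the invariant chain, measured 57.2 to 102 CPM in Casp8-/- Tnfr1-/- and 28.6 to 82.4 CPM in the other livers (log2 fold change 1.21 against WT, SE 0.32, adjusted p = 0.0563). Of 12 class II promoter factors edgeR called 1, Spi1, the PU.1 factor of myeloid and B cells. Among all genes, 5.1% were called higher against WT and 2.05% against Tnfr1-/-. Spi1 measured 39.9, 50.5 and 62.1 CPM in Casp8-/- Tnfr1-/- livers and 12.6 to 32.0 CPM in the others, and rose by a log2 fold change of 1.52 against WT (edgeR adjusted p = 0.00888) and 1.54 against Tnfr1-/- (0.0283). The RFX subunits Rfx5, Rfxap and Rfxank and the NF-Y subunits Nfya, Nfyb and Nfyc were not called. Of 4 costimulation genes tested, such as Cd86 and Cd40, edgeR called 0 (1 at an unadjusted p under 0.05 against each of the 3 genotypes). Cd40 measured 4.90 to 5.37 CPM in Casp8-/- Tnfr1-/- livers, above the 1.58 to 3.72 CPM of the others (0.78 against WT, SE 0.30, adjusted p = 0.148). Spi1 and Cd40 thus lay above all 8 other livers in every Casp8-/- Tnfr1-/- liver, as did 7.43% of all genes.

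The genes whose levels followed the class II genes most closely over the 11 livers were found by the smallest root mean square difference in log2 CPM, each gene being set to its WT mean. For the mean of H2-Aa, H2-Ab1, H2-Eb1 and Cd74 they were Fggy (0.23), Pdzk1 (0.23), Klhl13 (0.23), Ddc (0.23) and Acat3 (0.24). For Ciita they were Fhl4 (0.23), Hlf (0.23), Sec14l2 (0.26), Afmid (0.27) and Pde6c (0.28). In Casp8-/- Tnfr1-/- replicate 3 the class II genes averaged here parted, with log2 CPM of 4.98 for H2-Ab1 and -2.95 for H2-Eb1, so the mean describes neither there. None of the named genes is in the lists of class II genes or of dendritic cell, B lineage or macrophage markers. Ciita had 0 to 18 counts per liver, so its pattern is imprecise.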

How the data were processed

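Members, gene lists and tests were chosen with earlier results of these data known. RNA of 11 fetal livers was sequenced as single-end 50-base reads. The sources name different library kits and sequencers. Per the labels and the study's methods, alignment by the authors was to GRCm38, by GSNAP, and only uniquely mapped reads were used. The deposited tables hold raw counts per gene, with the exon length of each gene, used here for levels per kilobase, and RPKM values, which the authors computed and no test here used. The counting tool and its use of strand are not given in the sources used here. Names and positions came from GENCODE M21, which matched 52489 of 52636 identifiers.

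The filterByExpr function, set to a minimum count of 10, passed 17243 genes. One edgeR 4.0.16 quasi-likelihood model (R 4.3.3, TMM scaling, genotype as factor) held all 11 livers, where the study's methods name limma. The common biological coefficient of variation was 33.3%. The threshold was an adjusted p of 0.05, by Benjamini-Hochberg over all tested genes. Intervals of fold changes are 95% intervals of this model. Log2 CPM used a prior count of 2. A floor for a count of 0 is 3 counts and covers counting error only. Alternatives were DESeq2 1.42.0 (size factors, Wald test), limma-voom (limma 3.58.1) with and without quality weights, hemoglobin genes left out of library sizes, 2 other filters, only the 2 genotypes compared, a replicate block, each liver left out, and 2 livers left out together.

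The lists were other class II genes, class II loading and turnover, class II promoter factors, the IFN-gamma pathway, IFN-gamma induced genes, MHC class I genes, costimulation, T, NK and ILC genes, and markers of dendritic cells, B lineage, macrophages, monocytes, neutrophils, hepatocytes, erythroid cells, endothelium, stroma and striated muscle. The text names all members, the other class II genes, Nlrc5, Ifng, Irf1, defining markers of antigen-presenting cells, up to 3 called genes of smallest p in each other list and the 5 genes most alike in pattern. Some genes of this rule are not reported here. Other genes were named after their values were seen.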

Additional observations from a re-analysis of the deposited data

How the results depend on the processing

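Counts, medians and members' fold changes were recomputed under 21 alternatives, and 964 values were rated the same. A member's fold change was so rated if it kept its sign and its side of the threshold. A median was so rated if it moved by less than 0.579 in log2, whatever its sign. Sign changed for 51 members' fold changes, 17 counts or medians moved, and 11 fold changes newly passed with their sign kept. H2-Aa in Casp8-/- Mlkl-/- against WT under quality weights both changed sign and passed, and is among the 51. With limma-voom quality weights, and with Casp8-/- Tnfr1-/- replicate 3 and Casp8-/- Mlkl-/- replicate 1 both left out, the members called went from 0 to 1 higher (Cd74) against WT, Tnfr1-/- and Casp8-/- Mlkl-/-, and from 0 to 1 lower (H2-Aa) against WT and Tnfr1-/-. The share of all genes called went from 5.8% to 30.6% and 31.3% against WT, from 2.17% to 25.1% and 23.2% against Tnfr1-/- and from 1.65% to 15.7% and 18.1% against Casp8-/- Mlkl-/-. Quality weights also called 1 lower (H2-Aa) in Casp8-/- Mlkl-/- against WT, with 6.04% of all genes. With a single liver left out the number called was 0 to 1 lower against Tnfr1-/- and 0 in each other count. The adjusted p of Cd74 against WT ranged from 0.000426 to 0.609 over its alternatives, and that of H2-Aa from 0.0234 to 0.433. The cause was not tested.

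Under quality weights the log2 fold change turned to -0.38 (H2-Ab1) and 0.33 (H2-Eb1) against WT, to -0.51 (H2-Ab1) against Tnfr1-/-, and to 0.21 (H2-Aa), 0.61 (H2-Eb1), 0.63 (H2-DMa) and 0.61 (H2-DMb1) against Casp8-/- Mlkl-/-. In Casp8-/- Mlkl-/- against WT it turned to -1.13 (H2-Aa), -0.63 (H2-Ab1), -0.27 (H2-Eb1) and -0.61 (Cd74), and in Tnfr1-/- against WT to -0.040 (H2-DMa). Without both livers the same results turned to -0.37, 0.42, -0.55, 0.087, 0.74, 0.70 and 0.53 in the Casp8-/- Tnfr1-/- comparisons in this order, to -0.996, -0.61, -0.32 and -0.54 in Casp8-/- Mlkl-/- against WT, and to -0.0023 in Tnfr1-/- against WT. limma-voom without weights gave 0.038 for H2-DMb1 against Casp8-/- Mlkl-/- and -0.40 for H2-Aa in Casp8-/- Mlkl-/- against WT.

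With each liver left out in turn, signs turned within these ranges. Against WT they were -0.38 to 2.31 for H2-Ab1 (negative without Casp8-/- Tnfr1-/- replicate 3), -0.50 to 0.41 for H2-Eb1 and -0.42 to 0.050 for H2-DMb1. Against Tnfr1-/- the range was -0.58 to 2.12 for H2-Ab1. Against Casp8-/- Mlkl-/- they were -0.82 to 2.43 for H2-Ab1, -1.30 to 0.21 for H2-Eb1, -0.41 to 0.42 for H2-DMa and -0.30 to 0.32 for H2-DMb1. In Casp8-/- Mlkl-/- against WT they were -1.01 to 0.40 for H2-Aa, -0.62 to 0.78 for H2-Ab1, -0.31 to 1.17 for H2-Eb1, -0.55 to 0.65 for Cd74 and -0.56 to 0.093 for H2-DMb1, the first 4 negative without replicate 1 of the double knockout. In Tnfr1-/- against WT they were -0.17 to 0.29 for H2-DMa and -0.16 to 0.70 for H2-DMb1.

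Whether the replicate numbers pair the livers could not be decided. Of 15 same-numbered pairs, 5 correlated above 0.1 in their deviations from the genotype mean (-0.297 to 0.275, other pairs -0.284 to 0.309). Deviations within a genotype cancel out, which ties the values of same-numbered pairs to those of other pairs. These correlations therefore neither show nor exclude pairing. The replicate block called 0 members in each comparison and turned H2-Aa to -0.21 in Casp8-/- Mlkl-/- against WT, and Cd74 to -0.15 and H2-DMa to -0.32 in Tnfr1-/- against WT.

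Depth limits Ciita, with 0 to 18 counts, and Ifng, with 0 to 3. With 2 or 3 livers per genotype the intervals of several members are wide, such as 0.242- to 3.52-fold for H2-Eb1 and 0.805- to 15.3-fold for H2-Ab1 against WT, so the missing calls do not show equal levels.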

Other observations

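Some monocyte and neutrophil markers were higher in Casp8-/- Tnfr1-/- livers, in which edgeR called 0 class II genes. edgeR's quasi-likelihood test called 4 of 7 monocyte markers higher against WT, led by Cd14 (3.51, adjusted p = 0.00723), Itgam (2.92, 0.0116) and Ly6c2 (1.60, 0.0197), and 4 of 8 neutrophil markers, led by S100a8 (3.31, 0.0130), S100a9 (3.53, 0.0182) and Ltf (3.27, 0.0260). Against Tnfr1-/- 2 monocyte and 1 neutrophil markers were called higher, and against Casp8-/- Mlkl-/- 0 of either (4 and 6 at an unadjusted p under 0.05). The shares of all genes called higher were 5.1% against WT, 2.05% against Tnfr1-/- and 1.54% against Casp8-/- Mlkl-/-. Of 8 endothelial markers Pecam1 was called higher (1.30, 0.0449). None of 8 hepatocyte (1 at an unadjusted p under 0.05), 8 erythroid (4), 8 stromal (5) or 9 tested striated muscle markers (9) was called against WT. An unadjusted p under 0.05 was held by 4238 of 17243 genes against WT and by 2644 against Casp8-/- Mlkl-/-. The monocyte list had a median log2 fold change of 1.60 and the neutrophil list of 3.27, beside -0.00 for all genes. The neutrophil sum was 5101 to 14778 CPM in Casp8-/- Tnfr1-/- livers and 1061 to 3349 CPM in the others. Without the 2 livers that stood apart, 6 of 7 monocyte and 8 of 8 neutrophil markers were called higher and 8 of 8 erythroid markers lower against WT, with 31.3% of all genes called.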
